A study of Schizosaccharomyces pombe with 40 samples.

Results

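The RNAs described here are 299 of the 7013 genes measured by polyA RNA-seq in the fission yeast Schizosaccharomyces pombe, and all are noncoding RNAs of the SPNCRNA series that the deposited table does not name as antisense to a gene. The table holds 1535 SPNCRNA identifiers, of which 635 carry an antisense name and 900 do not. A member had a mean level of at least 5 scaled CPM in both libraries of the ED666b wild type, and a pair of RNAs that met this level, SPNCRNA.1343 and SPNCRNA.1673, were set aside by name. Scaled CPM is the authors' count of reads per gene multiplied by 1 constant per library, so that levels can be compared between libraries. The members were thus chosen on their level in 2 of the 17 libraries, and comparisons that use those libraries are given below as description only.

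Ell1 is the fission yeast ELL, an elongation factor that raises the rate at which RNA polymerase II transcribes. Eaf1 is its binding partner, related to the human EAF proteins, and the study's title places ELL in a rudimentary super elongation complex, and the loss of Ebp1 was tested beside the loss of these proteins. Fission yeast transcribes many RNAs without a coding sequence between genes and across them, by the same polymerase, and most are kept at a low level by nuclear RNA decay.

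The ED666 set held 3 libraries each of wild type (h+ with ade6-M210, ura4-D18 and leu1-32), ebp1Δ and eaf1Δ, with each gene replaced by kanMX6 in that background. A second ED666 set, called ED666b here, held 2 libraries each of the same wild type and of ell1Δ with kanMX6. The Pem2 set held 2 libraries each of another wild type and of ell1Δ with natMX6. The Pem2 wild type is h- with the same ade6, leu1 and ura4 alleles, and also carries mat1_m-cyhS, smt0 and a cyhR allele of rpl42. All cultures grew in rich YES medium at 32 °C to mid log phase, and the labels do not say whether replicates came from separate cultures. The p-values below thus cover the spread among the sequenced libraries, which may be technical.

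Libraries held 6486554 to 9193169 reads in genes in the ED666 set, 38150862 to 43374049 in ED666b and 35337271 to 40796006 in Pem2, so 1 read was worth 0.112 to 0.152 scaled CPM in the first and at most 0.0278 in the others. The columns taken as ebp1Δ carry a code found in no label and were assigned by elimination, since every other column name matched another sample, so all ebp1Δ results rest on that assignment. The deletion check used the deleted genes' own reads. The ebp1 level was 8.28 to 10.2 in the libraries labelled ebp1Δ and 61.2 to 79.6 in ED666 wild type, and eaf1 was 19.0 to 22.3 in eaf1Δ against 43.4 to 56.8. The ell1 level was 16.6 and 20.6 in ED666b ell1Δ against 73.5 and 84.6, and 25.3 and 31.1 in Pem2 ell1Δ against 68.5 and 71.4. The 299 RNAs took 0.490% to 0.707% of a library's reads, with the highest share in ED666 wild-type replicate 3. That library stood apart: the correlation of member levels was 0.960 between wild-type replicates 1 and 2 and 0.830 and 0.820 between replicate 3 and each of them, as a description over 299 RNAs of libraries from 1 strain. In all, 14 members were at least 2-fold higher in it than in both other wild-type libraries and 2 were at least 2-fold lower. In no other ED666 library did more than 3 members stand as far above or below both of its replicates.

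Most of these RNAs were weakly expressed. The mean in ED666b wild type ran from 5.03 to 640 scaled CPM with a median of 10.7, and 138 of the 299 lay between 5 and 10 while 15 exceeded 50. The 3 highest RNAs held 20.4% of the summed level. Just above the limit of 5 lay SPNCRNA.974 at 5.03, SPNCRNA.943 at 5.05 and SPNCRNA.600 at 5.06, and just below it lay SPNCRNA.1216 at 4.95, SPNCRNA.1246 at 4.94 and SPNCRNA.239 at 4.93.

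**Figure D1:**
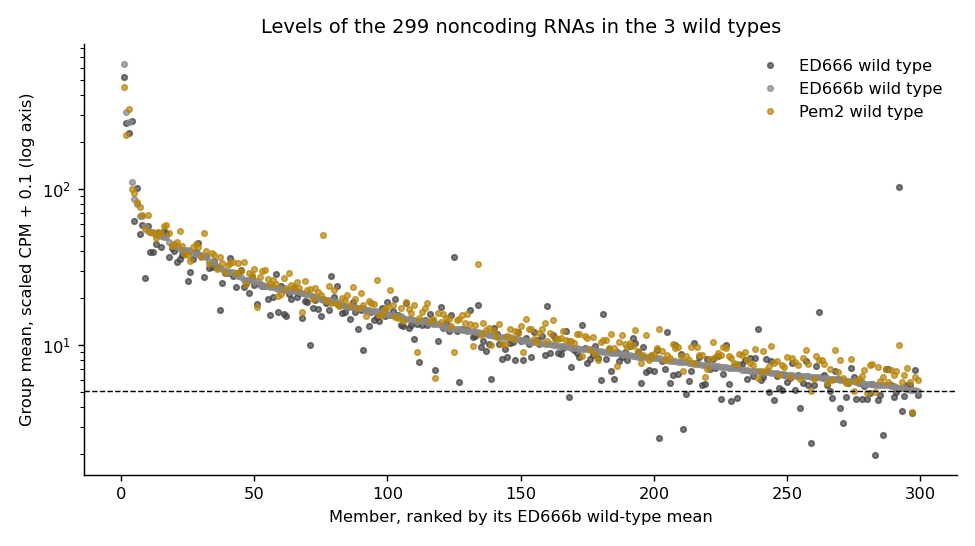
Mean level of each of the 299 RNAs in the 3 wild types, on a log axis in scaled CPM + 0.1, ranked by the ED666b wild type. Points are means of 3 libraries (ED666) or 2 libraries (ED666b, Pem2), and the dashed line marks 5 scaled CPM; 269 RNAs lie at or above it in all 3 wild types.

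The level held in libraries that played no part in the choice. The mean was at least 5 in 270 members in ED666 wild type and in 294 in Pem2 wild type, in 199 every single library was at 5 or more, and only 14 members fell below 1 in any library. Per length, in the authors' RPKM, the members' median was 10.04 in ED666b wild type, against 46.95 for 5108 coding genes, 8.0 for 314 antisense-named RNAs chosen at the same level and 3.26 for 167 other noncoding RNAs at 1 to 5 scaled CPM. Their lengths ran from 155 to 5317 bases with a median of 1177, shorter than the 1800.5 of coding genes and the 1788 of the antisense-named RNAs.

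Although none is named as antisense, many overlap coding genes. Of the 295 members found in the RefSeq annotation, 140 overlapped no coding gene, 127 overlapped at least 1 coding gene on the opposite strand and 38 overlapped one on the same strand, with 10 in both of the last classes. A long terminal repeat of a retrotransposon was overlapped by 14. Chromosomes I, II and III held 135, 95 and 65 of them. No source used here says whether reads were counted by strand, so the values of overlapping members may include reads of the partner gene and are uncertain. Overlap of members with other noncoding RNAs was not checked, so RNAs listed apart may share reads.

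The most abundant RNA was SPNCRNA.1095, with 433, 697 and 436 scaled CPM in ED666 wild type, 376 and 903 in ED666b wild type and 394 and 518 in Pem2 wild type. Beside it on chromosome III, SPNCRNA.1094 was at 234, 348 and 218, then 192 and 430, then 191 and 252 in the same libraries. Both RNAs were highest in the same replicate of each of these groups, and in both the ED666b wild-type replicates differed by more than any 2 group means of the wild types. Whether their annotations overlap and share reads was not checked.

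SPNCRNA.863, which overlaps a long terminal repeat, was at 252, 280 and 159 in ED666 wild type and at 204 and 338 in ED666b wild type. SPNCRNA.979 was steadier, at 46.5 to 71.1 in ED666 wild type and 60.5 to 71.0 in both ED666 deletions together. SPNCRNA.111, which the reference names rse1 and which lies beside ste11, the gene for the regulator of sexual differentiation, was at 80.2, 96.8 and 128 in ED666 wild type, 98.8 to 111 in ebp1Δ and 92.6 to 105 in eaf1Δ. None of the 6 most abundant RNAs, SPNCRNA.1626 included, was called in any comparison by limma with Benjamini-Hochberg adjustment over all 6160 genes tested. Over these RNAs and the 4 comparisons that do not use the choosing libraries, 2 differences had an unadjusted p under 0.05, and edgeR and DESeq2 called 0 and 1.

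The table gives 13 members a name other than their identifier, and 1 of them, prl67, was called in ebp1Δ and in eaf1Δ against ebp1Δ, as described below. The 6 whose name is not a prl number (rrk1, ter1, snoR61, omt3, meu16 and meu19) gave 0 calls by limma in the same 4 comparisons, 3 differences at an unadjusted p under 0.05, 0 calls by edgeR and 1 by DESeq2. The telomerase RNA ter1 was at 24.8 to 33 in ED666 wild type, 29.6 to 32.6 in ebp1Δ and 25 to 33.7 in eaf1Δ, and at 21.0 to 28.2 in the 8 libraries of the other sets. The small nucleolar RNA snoR61, of the class that guides RNA modification, was at 41.5 to 62.4 in ED666 wild type and 46.7 to 78.2 in ebp1Δ. The meiotic RNA meu16 stayed between 22.3 and 30.7 in all 17 libraries.

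The largest positive difference among the 299 RNAs in ebp1Δ, not called, was that of rrk1, the RNA subunit of the tRNA-processing ribonuclease P. It was at 22.3, 18.3 and 12.9 in ED666 wild type, 34.7, 61.5 and 50.6 in ebp1Δ and 26.9, 43.1 and 75.3 in eaf1Δ. All 6 deletion libraries lay above the 3 wild-type libraries, but the replicates of each deletion differed widely. The log2 differences of 1.40 (SE 0.39) and 1.3 (SE 0.39) had adjusted p-values of 0.0722 and 0.152 by limma. In the deeper sets rrk1 was at 5.42 to 14.5. This RNA carries no polyA tail in its mature form, as background, and the summed level of genes whose RNA lacks a polyA tail was 173 to 260 in ED666 wild type, 266 to 328 in ebp1Δ and 225 to 469 in eaf1Δ; its part in the rrk1 values was not tested.

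Loss of ebp1 lowered a larger share of these RNAs than of genes at large. Of the 299, 36 were called at an adjusted p under 0.05 by limma, which is 12% against 3.67% of all genes tested; 31 fell, with 2.74% of all genes falling, and 5 rose, with 0.925% of all genes rising. The median log2 difference over the members was -0.11, with quartiles of -0.32 and 0.07, against 0.01 over all genes, and 101 of 299 members were positive. Protein-coding genes were called at 2.36%, antisense-named RNAs at 8.92% and other noncoding RNAs at 1 to 5 scaled CPM at 4.79%. In bulk RNA, fewer cells that make an RNA and less of it per cell cannot be told apart. ED666 wild-type replicate 3 bore on the count: without it 45 members were called, 34 of them lower and 11 higher. With the spread taken from the 6 compared libraries alone, 15 were called, 14 of them lower. These counts are given without those of all genes under the same setting. By edgeR 26 members were lower and 3 higher, against 143 and 36 of all 6160 genes. By DESeq2 44 were lower and 6 higher, against 252 and 80 of all genes.

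**Figure D2:**
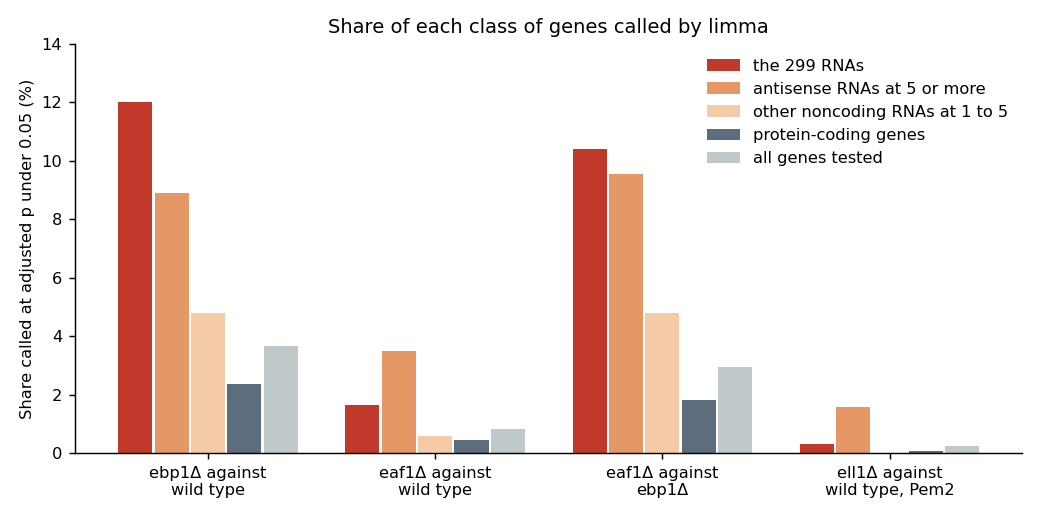
Share of each class of genes called by limma at an adjusted p under 0.05 (vertical axis, %) in the 4 comparisons that do not use the libraries behind the choice of members. Bars stand for the 299 RNAs, 314 antisense-named RNAs, 167 other noncoding RNAs at 1 to 5 scaled CPM, 4964 coding genes and all 6160 genes tested. The members' bar reaches 12% in ebp1Δ and 10.4% for eaf1Δ against ebp1Δ, and 1.67% and 0.334% in the other comparisons.

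All 31 RNAs that fell had each ebp1Δ library below each wild-type library. The 31 were called on these same libraries, so the separation is a description and not further evidence. Their falls ran from -0.41 to -2.54 on the log2(scaled CPM + 1) scale, 13 of them at least 2-fold, and their median level in ED666b wild type was 11.1. By level in that wild type, 12.3% of members at 5 to 10, 12.5% at 10 to 20 and 11.0% at 20 or more were called in either direction. Of the 31, 19 overlapped no coding gene, 7 overlapped one on the opposite strand and 4 on the same strand, from 140, 127 and 38 members of these classes.

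**Figure D3:**
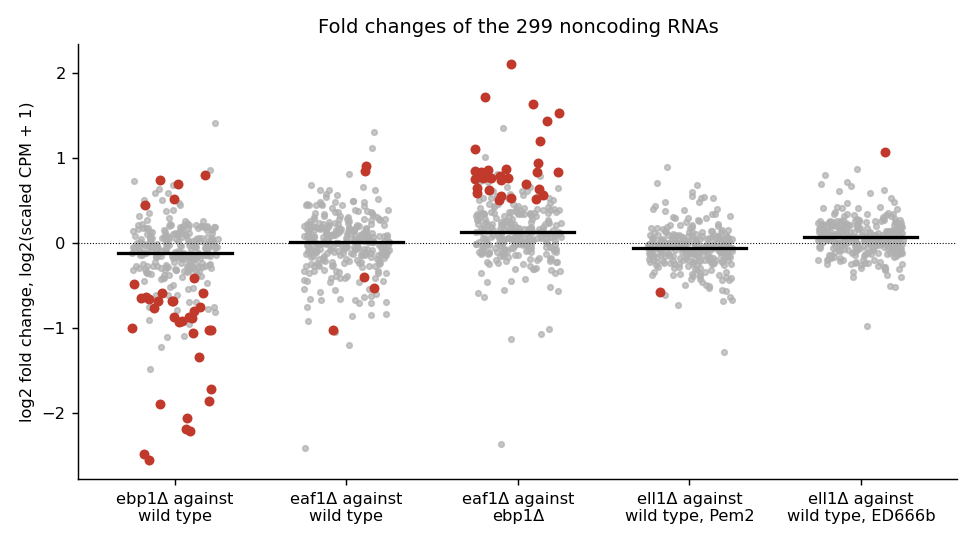
Difference of each of the 299 RNAs on the log2(scaled CPM + 1) scale (vertical axis) in 5 comparisons; red points were called by limma at an adjusted p under 0.05 and black bars are medians. The ebp1Δ column holds 31 red points below 0 and 5 above, and the 31 red points of eaf1Δ against ebp1Δ all lie above 0; the last column uses the libraries that chose the members and is a description.

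The 2 steepest falls came from 1 stretch of chromosome I. Between pcs2, which encodes a subunit of the monopolin complex at kinetochores, and hsr1, which encodes a zinc-finger transcription factor of the stress response, the table lists 8 noncoding RNAs, SPNCRNA.777 to SPNCRNA.784, all of them members. In ebp1Δ 6 of these 8 fell. SPNCRNA.782 was at 6.83, 8.77 and 7.48 in wild type and at 0.492, 0.405 and 0.571 in ebp1Δ. SPNCRNA.779 was at 10.8, 10.4 and 8.76 in wild type and at 0.984, 1.08 and 0.857 in ebp1Δ. In both RNAs the groups lay far apart, and the log2 differences were -2.54 (SE 0.19, adjusted p = 1.11e-05 by limma) and -2.47 (SE 0.20, adjusted p = 1.57e-05 by limma).

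Between them, SPNCRNA.780 was at 6.23, 2.83 and 4.38 in wild type and at 0.123, 0.405 and 0 in ebp1Δ, where 1 library held no read of it. SPNCRNA.781 was at 3.80, 4.16 and 5.65 in wild type and at 0.246, 0.944 and 0.429 in ebp1Δ. The limit of 3 reads was 0.369, 0.405 and 0.429 in ebp1Δ replicates 1, 2 and 3. Of these ebp1Δ values only 0.944 lay above its limit, and the 0.405 of SPNCRNA.782 lay at it. The groups did not overlap in SPNCRNA.780 or SPNCRNA.781, and the log2 differences were -2.19 (SE 0.26) and -1.86 (SE 0.24). SPNCRNA.784 and SPNCRNA.777, the latter across pcs2 on the opposite strand, fell less, by 1.06 (SE 0.25) and 1.02 (SE 0.21) on the log2 scale, with adjusted p-values of 0.0327 and 0.0151 by limma. The remaining members of the stretch were not called, with SPNCRNA.778 at -0.78 (SE 0.23, adjusted p = 0.0912 by limma) and SPNCRNA.783 at -0.29 (SE 0.18, adjusted p = 0.465 by limma).

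At one end of the stretch, the hsr1 mRNA itself was at 66.5, 67.4 and 81.6 in wild type and at 37.2, 31.8 and 30.7 in ebp1Δ, a log2 difference of -1.09 (SE 0.13, adjusted p = 0.000342 by limma). At the other end, pcs2 was at 71.2 to 87.2 in wild type and 71.1 to 72.8 in ebp1Δ, and was not called. The 8 RNAs lie on both strands, 4 of them on that of hsr1. All 8 and hsr1 had a higher mean in ED666b wild type than in ED666 wild type, though both have the same genotype. SPNCRNA.779 had means of 20.9 and 9.98 in these wild types, SPNCRNA.782 of 14.2 and 7.70 and hsr1 of 124 and 71.8. For pcs2 the means were 93.8 and 77.4. The ED666b wild type chose the members, so this is a description, and its cause was not tested.

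In eaf1Δ the mean level lay between those of wild type and ebp1Δ for each of the 8 RNAs except SPNCRNA.783, whose mean of 5.37 in eaf1Δ was above the 4.43 of wild type without being called (0.24, SE 0.18, adjusted p = 0.581 by limma). SPNCRNA.779 was at 6.83, 5.02 and 3.82 and SPNCRNA.782 at 5.58, 3.24 and 3.15, below every wild-type and above every ebp1Δ library. Against wild type their log2 differences of -0.84 (SE 0.20) and -0.83 (SE 0.19) had adjusted p-values of 0.0744 and 0.0738 by limma, while against ebp1Δ they were called, at 1.63 (SE 0.20, adjusted p = 0.000808 by limma) and 1.71 (SE 0.19, adjusted p = 0.00044 by limma). The hsr1 mRNA, at 42.5 to 59.6 in eaf1Δ, lay between the others likewise. In Pem2 ell1Δ none of the 8 was called, and SPNCRNA.779 was at 20.9 and 12 against 25.5 and 20.4 in Pem2 wild type, groups that overlapped.

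**Figure D4:**
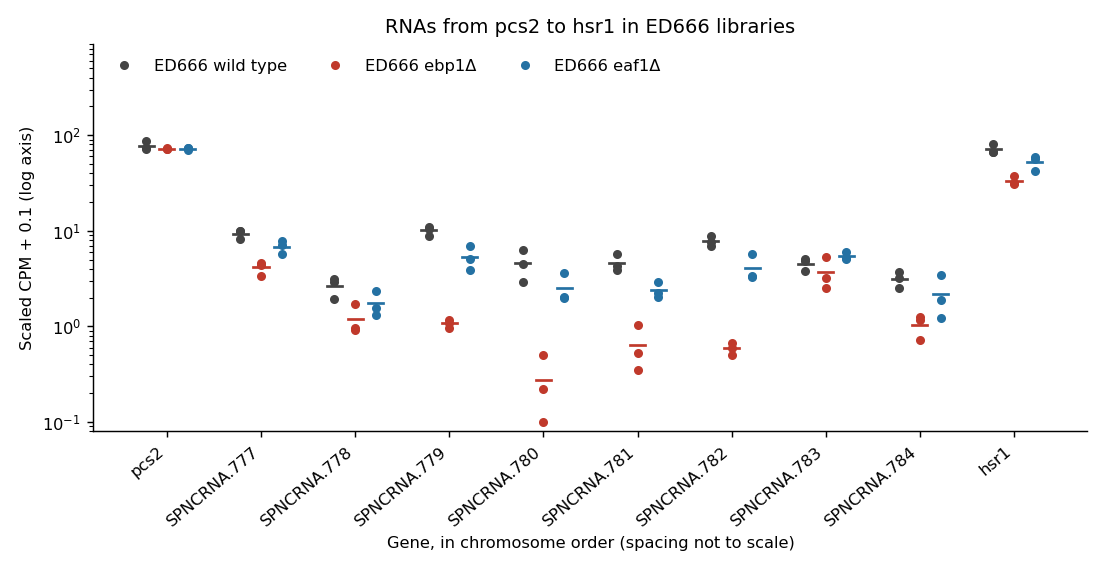
Levels of pcs2, the 8 noncoding RNAs of the stretch and hsr1 in each ED666 library, in chromosome order, on a log axis in scaled CPM + 0.1; points are libraries and bars group means (n = 3). Red ebp1Δ points lie far below grey wild-type points at SPNCRNA.779 (means of 0.973 and 9.98) and SPNCRNA.782 (means of 0.489 and 7.7), blue eaf1Δ points lie between, and pcs2 and SPNCRNA.783 overlap between groups.

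Other steep falls in ebp1Δ were scattered over the genome. SPNCRNA.1340 on chromosome II, between the gene of the iron transporter Fet4 and SPBC1271.15c, was at 7.90, 3.42 and 5.79 in wild type and at 0.492, 0.405 and 0.286 in ebp1Δ, a log2 difference of -2.21 (SE 0.35, adjusted p = 0.00296 by limma). Its eaf1Δ libraries, at 3.35, 0.893 and 1.69, lay below all wild-type libraries without being called. Neither fet4 nor SPBC1271.15c was called.

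The RNA prl67 (SPNCRNA.67), from a series of polyA-bearing RNAs without a long reading frame, lies across epe1 on the opposite strand; Epe1 is a JmjC-domain protein that limits the spread of heterochromatin. It was at 7.14, 6.39 and 7.91 in wild type and at 0.984, 1.21 and 0.714 in ebp1Δ, a log2 difference of -2.05 (SE 0.16, adjusted p = 1.27e-05 by limma), with eaf1Δ at 6.0, 3.57 and 3.60. The epe1 mRNA itself was at 57.3 ± 3.81 in ebp1Δ and 61.5 ± 9.20 in wild type (SD, n = 3 each).

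SPNCRNA.944, beside pma1, the gene of the plasma membrane proton pump, was at 6.68, 4.61 and 5.51 in wild type and at 0.738, 1.48 and 0.286 in ebp1Δ. The lowest of these lay below the limit of 3 reads. The log2 difference was -1.89 (SE 0.21, adjusted p = 0.000278 by limma). The pma1 mRNA was at 2379 to 2839 in wild type and at 1782 to 1823 in ebp1Δ, without overlap, but its difference of -0.55 (SE 0.15) was not called (adjusted p = 0.0593 by limma). The next steepest falls outside the pcs2 to hsr1 stretch were those of SPNCRNA.1463, described with eaf1Δ below, and SPNCRNA.322, beside the cell-surface glycoprotein gene pfl3. SPNCRNA.322 was at 25.7, 19.6 and 35.0 in wild type and 11.6, 7.69 and 10.1 in ebp1Δ, a log2 difference of -1.34 (SE 0.21). In ED666b wild type it was at 61.3 and 54.2. SPNCRNA.322 was picked after its values were seen.

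The coding gene beside or across a fallen RNA mostly had a smaller difference of the same sign. Over 30 such pairs the median difference of the neighbour was -0.10, and 25 of the differences were negative. Some pairs share a neighbour, such as hsr1, so the pairs are not independent. In 5 of the 30 the neighbour was itself called, always lower. Over all 343 pairs of a member and a neighbouring coding gene, the median difference of the neighbour was -0.04 and the signs were alike in 59.8%. The neighbour was called in 24 of the 343, in 18 of them with the sign of the member. These 5 pairs involve 3 genes: hsr1, beside 3 of the RNAs, obr1, whose level of 758 to 1021 in wild type was 263 to 366 in ebp1Δ next to SPNCRNA.794 (-0.87, SE 0.19), and SPBPB10D8.01, at -1.78 (SE 0.15) next to SPNCRNA.1306. Each of these RNAs overlaps no coding gene.

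The 5 RNAs that rose in ebp1Δ did so by at most 0.80 on the log2 scale. SPNCRNA.1190 was at 7.59, 8.18 and 8.76 in wild type and at 13.4, 15.1 and 16.6 in ebp1Δ (0.80, SE 0.17, adjusted p = 0.0165 by limma). SPNCRNA.1390 rose from 6.99, 5.95 and 7.77 to 12.8, 11.6 and 10.9 (0.69, SE 0.11, adjusted p = 0.00416 by limma). In both, all ebp1Δ libraries lay above all wild-type libraries. SPNCRNA.630, SPNCRNA.865 and SPNCRNA.1212, each across coding genes on the opposite strand, rose by 0.73 (SE 0.13), 0.52 (SE 0.12) and 0.45 (SE 0.10). The gene across from SPNCRNA.865, SPAPB24D3.07c, fell by 1.74 (SE 0.27, adjusted p = 0.00246 by limma).

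Few of these RNAs were called in eaf1Δ. In all, 5 of 299 were called, or 1.67% against 0.844% of all genes, with 2 higher and 3 lower (0.519% and 0.325% of all genes), and the median log2 difference was 0.02 against -0.01 over all genes. An unadjusted p under 0.05 by limma was reached by 65 of the 299, 39 higher and 26 lower, against 809 of all 6160 genes. SPNCRNA.1463, which overlaps the gene sce3 on the same strand, fell most: it was at 3.95, 4.91 and 4.10 in wild type, at 2.09, 1.45 and 1.35 in eaf1Δ and at 0.738, 0.539 and 0.571 in ebp1Δ. The 3 groups did not overlap, and the log2 differences from wild type were -1.02 (SE 0.13, adjusted p = 0.00331 by limma) in eaf1Δ and -1.72 (SE 0.13, adjusted p = 1.11e-05 by limma) in ebp1Δ. The overlapping sce3 mRNA, for a translation initiation factor, was at 825 ± 121 in wild type and 842 ± 29.6 in eaf1Δ (SD, n = 3 each).

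SPNCRNA.844 was at 11.7, 11.6 and 12.9 in wild type and at 9.21, 8.15 and 6.97 in eaf1Δ (-0.52, SE 0.10, adjusted p = 0.0211 by limma), and SPNCRNA.669 at 11.1, 11.4 and 11.7 against 8.93, 8.15 and 8.20 (-0.40, SE 0.07, adjusted p = 0.0163 by limma). Both falls were small but without overlap of libraries, and neither was called by edgeR or DESeq2. SPNCRNA.1287, which overlaps a long terminal repeat, rose from 9.57, 8.03 and 9.46 to 16.5, 17.2 and 17.2 (0.84, SE 0.16, adjusted p = 0.0309 by limma). Its call was lost when any of the 6 libraries was left out, without the filter on low values, and by edgeR. The count in eaf1Δ rests on single libraries: it was 1 without replicate 2 of eaf1Δ, 1 without replicate 3 and 9 without replicate 1.

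Set directly against each other, eaf1Δ and ebp1Δ differed in 31 members, or 10.4% against 2.97% of all genes, and in each eaf1Δ was the higher, as in 2.35% of all genes. By limma 0 members were lower in eaf1Δ, against 0.617% of all genes, 18 had a negative difference at an unadjusted p under 0.05, and edgeR and DESeq2 called 0 and 2 lower. This comparison shares its ebp1Δ libraries with the one above, so the counts are not separate evidence. Without ebp1Δ replicate 3 the count was 19, all higher in eaf1Δ; from the 6 compared libraries alone it was 49, with 8 lower; and after quantile normalization 26 were higher and 5 lower. The largest difference was that of SPNCRNA.1319, which lies across the hexose transporter gene ght4 on the opposite strand, at 19.1, 21.0 and 18.5 in eaf1Δ and 3.44, 3.91 and 4.00 in ebp1Δ (2.1, SE 0.38, adjusted p = 0.0097 by limma). It was followed by SPNCRNA.782, SPNCRNA.779, SPNCRNA.780 (1.53, SE 0.26), prl67 (1.43, SE 0.16) and SPNCRNA.944 (1.20, SE 0.21). Against wild type SPNCRNA.1319 was not called in ebp1Δ (-1.48, SE 0.38, adjusted p = 0.0543 by limma), and wild-type replicate 3 stood at 4.24 beside 19.7 and 20.7 in replicates 1 and 2.

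Of the 14 members that stood high in that replicate, 6 had all ebp1Δ libraries above wild-type replicates 1 and 2, and 2 had all eaf1Δ libraries above them. Others of the 14 went the other way. In SPNCRNA.287, SPNCRNA.601, SPNCRNA.909 and SPNCRNA.1605 all ebp1Δ libraries lay below wild-type replicates 1 and 2. SPNCRNA.1605 was at 3.80, 2.68 and 14.3 in wild type and 1.57 to 1.89 in ebp1Δ. The RNA omt3 (SPNCRNA.130) was at 1.67 and 1.04 in wild-type replicates 1 and 2, 306 in replicate 3, 7.71 to 16.4 in ebp1Δ and 0.558 to 2.02 in eaf1Δ. SPNCRNA.1318 was at 10.9, 8.92 and 90.1 in wild type, 18.6 to 22.3 in ebp1Δ and 7.81 to 12.3 in eaf1Δ, and meu19, a transcript first found as raised in meiosis, at 8.35, 8.62 and 31.6, then 19.7 to 21.6, then 6.97 to 10.5. In each of these 3 RNAs the ebp1Δ libraries lay above wild-type replicates 1 and 2 and below replicate 3, and none was called in ebp1Δ against wild type. SPNCRNA.1626, among the most abundant members, was likewise at 193, 164 and 462 in wild type and 241 to 352 in ebp1Δ. Around SPNCRNA.1318 and SPNCRNA.1319, the mRNA of ght4 was at 27.8, 26.2 and 150 in wild type and 45.2 to 58.9 in ebp1Δ, and that of frp1, a ferric reductase gene, at 12.8, 8.92 and 77.1 and 16.6 to 33.1. The SPNCRNA RNAs of this paragraph without a name of their own were picked after their values were seen.

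**Figure D5:**
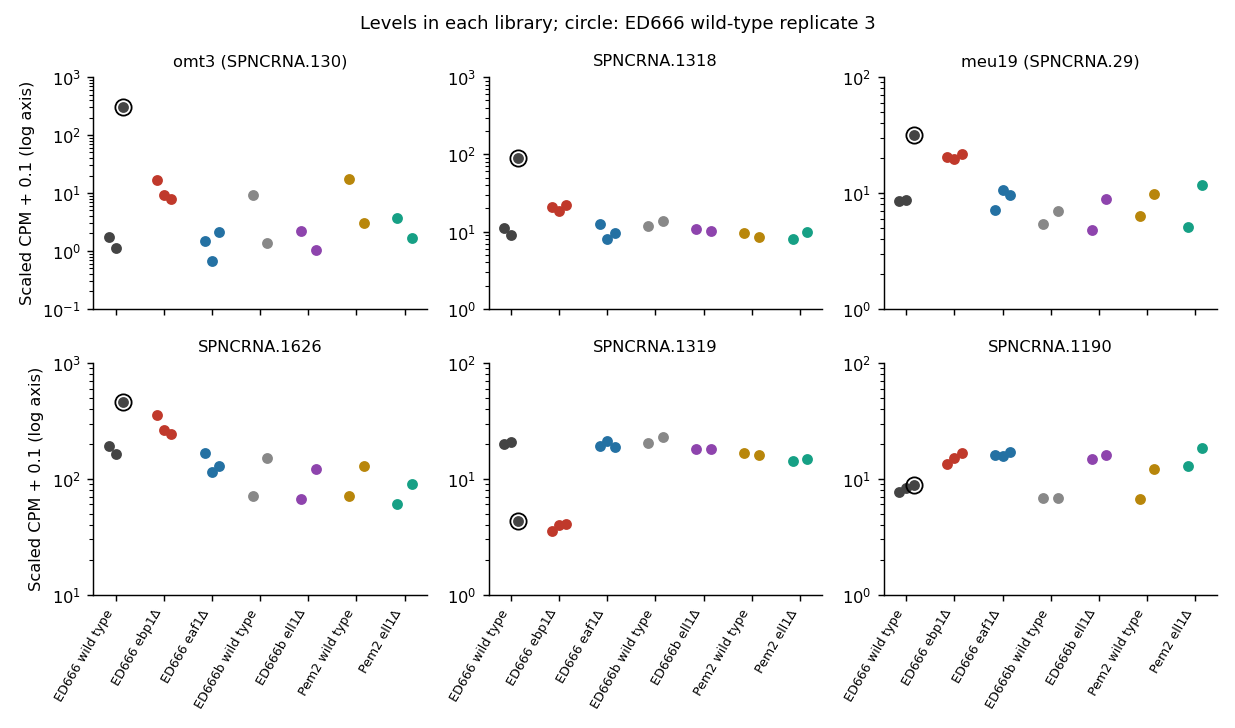
Level of 6 of the RNAs in every library, on log axes in scaled CPM + 0.1, by group; the black circle marks ED666 wild-type replicate 3. That library lies far above its fellow replicates at omt3 and SPNCRNA.1318 and below them, level with ebp1Δ, at SPNCRNA.1319, while at SPNCRNA.1190 the 3 wild-type libraries lie together and below both ED666 deletions.

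In Pem2 ell1Δ 1 of the 299 RNAs was called, or 0.334% against 0.244% of all genes, and 0.0649% of all genes fell. SPNCRNA.1306, in the subtelomeric region of chromosome II beside SPBPB10D8.01, was at 34.5 and 35.1 in Pem2 wild type and 23.2 and 22.8 in Pem2 ell1Δ, a log2 difference of -0.58 (SE 0.10, adjusted p = 0.0303 by limma). The groups did not overlap, but each has only 2 libraries, and the call was lost when any of the 4 was left out (adjusted p of 0.135 to 0.421 by limma) and with the spread taken from these 4 libraries alone (adjusted p = 0.138 by limma). Fitting the replicate number as a block also ended the call of SPNCRNA.1306. In ebp1Δ the same RNA was at 15, 15.1 and 16.9 against 27.8, 30.2 and 30.4 in ED666 wild type (-0.87, SE 0.08, adjusted p = 4.87e-05 by limma), and in eaf1Δ it was at 24.9 to 29.4 (-0.11, SE 0.08). Its neighbour SPBPB10D8.01 fell in Pem2 ell1Δ by 1.11 (SE 0.19) on the log2 scale. Subtelomeric genes can have close copies elsewhere in the genome, so both values are uncertain. Over the 299 RNAs the median log2 difference in Pem2 ell1Δ was -0.05 against 0.00 over all genes. An unadjusted p under 0.05 by limma was reached by 24 of them, 13 higher and 11 lower, against 261 of all 6160 genes.

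In ED666b the ell1Δ comparison uses the libraries that chose the members, and nothing is read from it: 1 of 299 passed the same threshold, against 0.519% of all genes in either direction and 0.406% higher, with a median log2 difference of 0.07. That RNA was SPNCRNA.1190, at 6.77 and 6.76 in ED666b wild type and 14.7 and 15.9 in ED666b ell1Δ. In Pem2, whose libraries did not choose the members, it was at 6.63 and 12.1 in wild type and 12.9 and 18.2 in ell1Δ, where both groups came close and the difference of 0.71 (SE 0.20) was not called (adjusted p = 0.348 by limma). It was also called in eaf1Δ, at 16, 15.7 and 16.9 against the wild-type values above (0.91, SE 0.17, adjusted p = 0.0206 by limma). The ebp1Δ and eaf1Δ values share 1 set of wild-type libraries. SPNCRNA.1190 lies on chromosome III beside ags1, the gene of the essential alpha-glucan synthase, and is named because it passed the threshold in 3 of the 4 deletion comparisons, 1 of which uses the choosing libraries. Over the 3 deletion comparisons that do not use them, 260 members passed in none, 36 in 1 and 3, SPNCRNA.1190 included, in 2. The ags1 mRNA was at 244 to 335 in ED666 wild type, 292 to 307 in ebp1Δ and 298 to 376 in eaf1Δ, and was not called in any of them.

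The difference between the ell1Δ effects of Pem2 and ED666b, which also uses the choosing libraries, was called for 0 members by limma, with 7 at an unadjusted p under 0.05 and 0 by edgeR and by DESeq2, against 0.0325% of all genes.

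Between the backgrounds, SPNCRNA.1133 stood out. This RNA on chromosome III, beside pil1, which encodes a core protein of eisosomes, was at 48.3 and 53.2 in Pem2 wild type against 19.9 and 19.1 in ED666b wild type, a comparison that uses the choosing libraries and in which 1 of 299 members passed, against 0.0812% of all genes in either direction and 0.0487% higher. In the ell1Δ libraries, which the choice did not use, it was at 46.4 and 48.1 in Pem2 and 20.3 and 20.7 in ED666b, a log2 difference of 1.17 (SE 0.16, adjusted p = 0.0123 by limma), and in the 9 ED666 libraries it was at 15.5 to 25.1. All 4 Pem2 libraries lay above the other 13. In that ell1Δ comparison 2 of 299 members were called, against 0.146% of all genes. The other was SPNCRNA.1306, lower in Pem2 by 0.56 (SE 0.10, adjusted p = 0.0498 by limma) on the log2 scale. Its Pem2 ell1Δ libraries are those called lower than Pem2 wild type above. The pil1 mRNA did not differ as SPNCRNA.1133 did, at 1263 and 1330 in Pem2 wild type and 1157 and 1395 in ED666b wild type. Mating type, smt0 and the cyhS and cyhR alleles differ between these backgrounds together and cannot be told apart. The ell1Δ strains, unlike the wild types, differ in their marker cassette as well.

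Among 30 listed genes of nuclear RNA surveillance and decay, such as subunits of the exosome and its cofactors, 29 were tested. By limma 0 were called in ebp1Δ, eaf1Δ or Pem2 ell1Δ, with 2, 2 and 0 at an unadjusted p under 0.05, and edgeR and DESeq2 called 0 in each. Their median log2 differences were 0.06, 0.01 and -0.03, and in ebp1Δ they ran from -0.08 to 0.24.

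The authors' deposited table gives its own adjusted p-values. By these the authors' deposited table puts 35 members past 0.05 in ebp1Δ, 30 lower and 5 higher, against 3.24% of all 7013 genes, and 24 of these were among the 36 called by limma. For eaf1Δ and Pem2 ell1Δ the authors' deposited table gave 10 and 6 members, against 1.28% and 1.33% of all genes. For ED666b ell1Δ, whose wild-type libraries chose the members, the authors' deposited table gave 5, all higher, against 1.58% of all genes.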

How the data were processed

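Levels are the authors' deposited values, called cpm per the file headers: a signal equal to whole reads per gene times 1 constant per library (100% whole within 0.01 read). RPKM values per length and p-values of the authors' own comparisons were used as deposited; per the file headers they go with log2 fold changes, which are not printed. TopHat2 2.1.1, Bowtie2 2.2.9, SAMtools 1.3.1, edgeR and build ASM294v2 are named in the submitters' processing notes; no source used here names the read counter or its use of strand. The libraries behind the choice of members proved, from the column names, to be the ED666b wild type and not the ED666 one, as the plan had assumed, so the comparisons kept as description are those with ED666b wild type, not those with ED666 wild type; the fits were made as planned.

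Levels were tested with limma 3.58.1 on log2(scaled CPM + 1) with 7 group means over 17 libraries, over 6160 genes with at least 1 scaled CPM in at least 2 libraries (all 299 members passed), and p-values were Benjamini-Hochberg adjusted over all of them; called means an adjusted p under 0.05. Fold changes on this scale understate those of low genes. Alternatives were edgeR 4.0.16 and DESeq2 1.42.0 on the recovered reads, other pseudocounts, filters and scalings, the compared libraries alone, the replicate number as a block, each library left out, and members at 5 or more in every wild type. The fits were also run on simulated counts, whose outcome is not given here and from which nothing is read. No replicate pair agreed within sampling noise.

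Neighbours and overlaps come from the RefSeq annotation of another build, matched by identifier for 295 of 299 members, so no coordinates or sequences are given. Named RNAs are, per comparison, up to 6 that rose and 6 that fell most among those called, those called in at least 3 deletions, the 6 highest, those whose name in the table is not a prl number, and 3 on either side of the limit of 5; others are marked as picked later. The members, lists and tests were chosen with earlier results of these data known. The 23 chromatin samples are not analysed here.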

Additional observations from a re-analysis of the deposited data

How the results depend on the processing

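The count of members called in ebp1Δ stayed within 1.5 times of 36 except with the spread taken from the compared libraries alone (15); edgeR and DESeq2 gave 29 and 50, and single libraries left out gave 24 to 45. Other counts moved as follows. In eaf1Δ (5) quantile normalization gave 10, the compared libraries alone 2, edgeR 1 and DESeq2 11, and libraries left out 1 to 9. For eaf1Δ against ebp1Δ (31) the compared libraries alone gave 49, and libraries left out 19 to 28. In Pem2 ell1Δ (1) a filter of 5 gave 2, the compared libraries alone 0, edgeR 2 and DESeq2 5, and libraries left out 0 to 1. In ED666b ell1Δ (1) no filter and quantile normalization gave 0, and each library left out 0. For Pem2 against ED666b wild type (1) quantile normalization gave 2, DESeq2 3, libraries left out 0 to 1, and the ell1Δ libraries in place of wild type, an alternative chosen after seeing the data, 2. Causes were not tested. Apart from edgeR and DESeq2 in ebp1Δ above, the member counts of this section are given without those of all genes under the same setting. They thus do not show whether the members' share changed against that of all genes. Of the named RNAs, 6 of 11 called in ebp1Δ, 5 of 6 in eaf1Δ against ebp1Δ and 0 of 5 in eaf1Δ kept their call under every alternative.

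SPNCRNA.1190 changed sign without Pem2 wild-type replicate 2 in a pair of differences that were not called: with single libraries left out it ran from -0.75 to 0.0306 for the difference between the ell1Δ effects of Pem2 and ED666b, and from -0.0256 to 0.755 for Pem2 against ED666b wild type. With the replicate number as a block the counts were 50 in ebp1Δ, 11 in eaf1Δ, 43 for eaf1Δ against ebp1Δ, 3 in Pem2 ell1Δ and 4 in ED666b ell1Δ. In Pem2 ell1Δ the block ended the call of SPNCRNA.1306 (adjusted p = 0.0572 by limma) and brought SPNCRNA.1190 past the threshold (adjusted p = 0.0182 by limma). Same-numbered ED666 libraries had correlated deviations of -0.219 to 0.243, not always highest for their own number, and the other sets have 2 pairs each (0.653 and 0.657), so the numbers were not taken to pair libraries. Leaving out together the wild-type libraries that chose the members was not run, since they are in none of the ebp1Δ or eaf1Δ comparisons.

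At ED666 depth, the lowest members rest on few reads, and a count of 0 allows a level of up to 0.456 (3 reads). Reads without molecular identifiers are not independent molecules, so this covers counting error only.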
